A study of Mus musculus with 8 samples.

Results

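The serum amyloid A family of the mouse comprises Saa1, Saa2, Saa3 and Saa4. All 4 genes were taken by symbol from a table of read counts for 55487 genes, and all 4 passed the filter on low counts that left 13312 genes to test. Liver RNA was sequenced in 4 libraries from mice that had received potassium sorbate, 17 mg by oral gavage, and in 4 libraries from controls that had received water in the same way. All animals were male C57Bl/6J, an inbred strain, about 10 weeks old, and livers were taken 4 hours after the gavage. Sorbate, a preservative in foods, is an unsaturated fatty acid with a short chain, and the study's title asks how it bears on lysine sorbylation, class I histone deacetylases and the expression of inflammation genes. The labels describe livers from mice without stating that each library is a separate animal, so p-values measure the spread between libraries, which may in part be technical.

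Serum amyloid A proteins are small apolipoproteins carried on high-density lipoprotein. Saa1 and Saa2 encode the acute-phase forms, which hepatocytes make in large amounts when interleukin 6, interleukin 1 and tumour necrosis factor act on them through STAT3, NF-kB and C/EBP factors. Saa3 is an acute-phase form made largely outside hepatocytes, including by macrophages and adipocytes, although the liver can also induce it. Saa4 encodes the constitutive form, which liver makes without inflammation.

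The 4 genes lie together on chromosome 7 (GRCm38, GENCODE vM21) within 42316 bases. On the minus strand, Saa3 (ENSMUSG00000040026) occupies chr7:46711998-46715700, Saa4 (ENSMUSG00000040017) chr7:46727998-46732603 and Saa1 (ENSMUSG00000074115) chr7:46740497-46742980. Saa2 (ENSMUSG00000057465) lies on the plus strand at chr7:46751790-46754313, so that Saa1 and Saa2 are transcribed away from each other. Each gene has 4 exons, and exon 3, of 139 bases, is coding in all of them. Exon 3 is shown because it shows how far a read can tell the members apart, with the bases that differ from Saa1 in capitals. The sequences are from GENCODE vM21 and run 5′ to 3′ on the transcribed strand.
Saa1: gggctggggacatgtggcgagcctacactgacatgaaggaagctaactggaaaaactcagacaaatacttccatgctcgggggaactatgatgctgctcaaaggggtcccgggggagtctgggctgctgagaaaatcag
Saa2: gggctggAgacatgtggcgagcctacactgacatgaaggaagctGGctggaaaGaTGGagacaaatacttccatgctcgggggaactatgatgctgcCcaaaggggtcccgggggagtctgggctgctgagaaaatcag
Saa3: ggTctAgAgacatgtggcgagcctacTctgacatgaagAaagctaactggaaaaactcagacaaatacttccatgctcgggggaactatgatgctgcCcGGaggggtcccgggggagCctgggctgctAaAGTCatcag
Saa4: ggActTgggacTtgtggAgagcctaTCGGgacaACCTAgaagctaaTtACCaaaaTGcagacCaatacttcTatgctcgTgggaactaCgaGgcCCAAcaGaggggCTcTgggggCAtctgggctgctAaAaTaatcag

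Saa2 differed from Saa1 at 8 of these 139 bases, Saa3 at 14 and Saa4 at 37. Over the whole coding sequence Saa1 and Saa2 were 95.1% identical, whereas Saa3 shared 75.7% and Saa4 65.0% with Saa1. Read length is not given in the sources used here, so stretches of 50 bases served as a measure of read sharing. Of the 560 such stretches in the Saa1 mRNA, 83 (14.8%) also occurred in another gene, 74 of them in Saa2 and 9 in Saa3. For Saa2 it was 74 of 557 (13.3%), for Saa3 9 of 506 (1.78%) and for Saa4 28 of 2045 (1.37%), the last shared with 520 genes. Reads from such stretches can have been split, discarded or assigned to the wrong paralog, so single values of Saa1 and Saa2 carry that uncertainty, and their sum is given as well.

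The bases upstream of each start are shown because Saa1 and Saa2 differed between the groups far more than Saa4 did. Whether these bases bear on that difference was not tested. They come from RefSeq (GRCm38.p6), run 5′ to 3′ on the strand of the gene and start 250 bases before the RefSeq start. Bases inside the GENCODE gene, 43 for Saa2 and 24 for Saa3, are not shown. The Saa1 stretch spans chr7:46742981-46743230, Saa2 chr7:46751583-46751789, Saa3 chr7:46715701-46715926 and Saa4 chr7:46732604-46732853. Capitals mark matches on either strand to TTNNGNAA, the core letters that C/EBP factors recognise.
Saa1: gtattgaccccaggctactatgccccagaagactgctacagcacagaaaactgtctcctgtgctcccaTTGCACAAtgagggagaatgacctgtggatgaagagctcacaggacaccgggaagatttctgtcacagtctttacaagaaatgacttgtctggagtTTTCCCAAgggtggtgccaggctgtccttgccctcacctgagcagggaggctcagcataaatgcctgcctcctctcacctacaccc
Saa2: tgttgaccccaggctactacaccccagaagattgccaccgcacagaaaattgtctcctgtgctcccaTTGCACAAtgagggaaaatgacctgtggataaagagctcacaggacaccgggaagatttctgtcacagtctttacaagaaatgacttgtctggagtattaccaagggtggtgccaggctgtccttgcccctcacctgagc
Saa3: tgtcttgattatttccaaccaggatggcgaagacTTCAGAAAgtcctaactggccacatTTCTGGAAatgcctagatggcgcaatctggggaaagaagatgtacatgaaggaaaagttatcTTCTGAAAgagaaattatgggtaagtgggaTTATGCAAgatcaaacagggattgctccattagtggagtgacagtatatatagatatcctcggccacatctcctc
Saa4: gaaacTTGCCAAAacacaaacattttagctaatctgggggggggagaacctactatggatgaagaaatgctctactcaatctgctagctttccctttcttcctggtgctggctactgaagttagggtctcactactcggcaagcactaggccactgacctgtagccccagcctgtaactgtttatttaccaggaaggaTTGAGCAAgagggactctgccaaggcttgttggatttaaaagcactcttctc

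The windows of 250 bases upstream of Saa1 and Saa2 were 94.8% identical, against 42.6 to 48.9% for every other pair. The identity of unrelated promoters aligned in the same way was not measured. TTNNGNAA occurred in all 4 windows, as it did in 36.8% of 32851 mouse promoters of the same length searched on both strands. Saa1 held it at -182 to -175 and at -86 to -79 from the start, Saa2 at -183 to -176 alone, Saa3 at 4 places and Saa4 at 2. The later Saa1 match had no counterpart in Saa2, where the letters differ. None of the 4 windows held TATAAA (in 12.4% of promoters), the STAT letters TTCNNNGAA (7.02%) or the degenerate consensus of NF-kB (7.25%). A match is a description of letters and not a site, and the lack of one says only that these letters are not in this window.

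Library totals ran from 15773932 to 25844731 counts in the sorbate group and from 17725351 to 22183016 in controls. The defining markers of hepatocytes were abundant throughout, with albumin and 9 other genes summing to between 96147 and 119234 counts per 1000000 (CPM, scaled by TMM factors) in sorbate livers and between 82006 and 98535 CPM in control livers. The control library of replicate 2 stood apart from the other 3 controls, and the values of the Saa genes are given with and without it. A gene was called higher or lower where its adjusted p was under 0.05, which held for 818 genes higher (6.14%) and 838 lower (6.3%) in sorbate livers. Without control replicate 2 it held for 2053 genes higher and 1915 lower.

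Saa1 and Saa2, the acute-phase genes of hepatocytes, were far lower in the sorbate livers. Saa1 stood at 223, 219, 111 and 214 CPM in sorbate replicates 1 to 4, against 11549, 1896, 10940 and 19012 CPM in control replicates 1 to 4. The sorbate libraries lay close together apart from replicate 3, and the control of replicate 2 was well below the other controls yet still 8.49 times the highest sorbate library. Saa1 averaged 191.9 ± 54.0 CPM in sorbate livers and 10849 ± 7007 CPM in control livers (SD, n = 4 each). Its log2 fold change was -5.82 (SE 0.63, 95% interval -7.22 to -4.42), or 56.5-fold lower. The adjusted p was 0.000845 by the quasi-likelihood test of edgeR, with p-values adjusted (Benjamini-Hochberg) over all 13312 genes. Summed over libraries, 16853 counts of Saa1 in the sorbate group stood against 878667 in controls.

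Saa2 fell further. It had 27.3, 74.0, 18.8 and 29.5 CPM in sorbate replicates 1 to 4, against 11154, 847, 11558 and 18196 CPM in control replicates 1 to 4. Sorbate replicate 2 was the highest of its group, and control replicate 2, the lowest control, was 11.4 times as high as that library. The means were 37.4 ± 24.8 CPM in sorbate livers and 10439 ± 7163 CPM in control livers (SD, n = 4 each), and the log2 fold change was -8.12 (SE 0.94, 95% interval -10.19 to -6.05), which is 279-fold lower (adjusted p = 0.00115, edgeR's quasi-likelihood test). No other tested gene had a lower log2 fold change than Saa2, and Saa1 stood at place 4 from the lowest. Without control replicate 2 the log2 fold changes were -6.16 for Saa1 and -8.50 for Saa2. With 1 surrogate variable in the fit, an unlabelled source of variation estimated from all genes, they were -4.20 and -5.80, and both genes remained past the threshold.

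**Figure D1:**
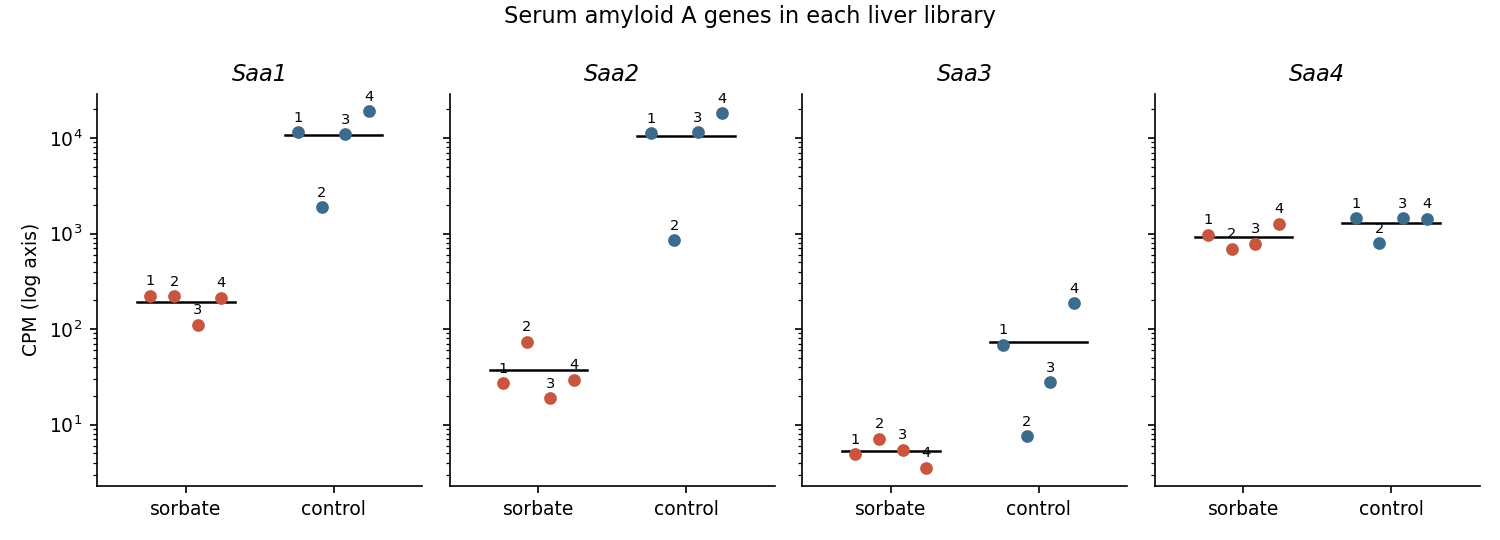
Level of each serum amyloid A gene in each library (CPM, log axis), with sorbate libraries to the left of control libraries, replicate numbers beside the points and a line at each group's mean. Saa1, Saa2 and Saa3 do not overlap between the groups, although control replicate 2 lies close to the sorbate libraries for Saa3, and Saa4 overlaps.

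Saa2 also took a smaller part of the combined Saa1 and Saa2 counts in sorbate livers. The 2 genes, as counted, were thus not lower in the same proportion. Its share was 10.9, 25.2, 14.5 and 12.1% in sorbate replicates 1 to 4, against 49.1, 30.9, 51.4 and 48.9% in control replicates 1 to 4. All sorbate libraries were below all controls, and control replicate 2 was the nearest to the sorbate group. The mean share was 15.7 ± 6.52% in sorbate livers and 45.1 ± 9.53% in control livers (SD, n = 4 each), a difference of -29.4 percentage points, or -34.1 without control replicate 2. An exact two-sided permutation test gave p = 0.0286, the smallest that its 70 arrangements allow, for this 1 comparison of shares. The members were chosen with earlier results of these data known, so this p is no independent support. Counting error was small beside this, since no exact (Clopper-Pearson) 95% interval of a share reached further than 1.35 points to a side. Such intervals cover counting error alone. The 2 mRNAs have nearly the same length (609 bases for Saa1 and 606 for Saa2), but how reads common to both were counted is not known, and its part in the share was not tested. Fitted as 1 gene, the sum of both gave -6.54 on the log2 scale (SE 0.72, adjusted p = 0.000878, edgeR's quasi-likelihood test).

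As a family, the 4 genes supplied a small part of the liver's counts after sorbate and a large one in controls. Their joint share was 0.127, 0.106, 0.0942 and 0.158% of all counts in sorbate replicates 1 to 4, against 2.30, 0.358, 2.29 and 3.56% in control replicates 1 to 4. The lowest control was thus above every sorbate library, and the other 3 controls were far above it. The mean was 0.121 ± 0.0280% in sorbate livers and 2.12 ± 1.32% in control livers (SD, n = 4 each), with no test for a score over the family. Leaving Saa4 out, the share was 0.0139 to 0.0321% in sorbate livers, against 0.278% in control replicate 2 and 2.15 to 3.43% in the other controls.

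The make-up of the family counts also differed. Saa4 supplied 79.5 ± 6.96% of them in sorbate livers and 9.52 ± 8.66% in control livers. Within the control group, Saa4 made up 22.4% in replicate 2 and 3.68 to 6.01% in the rest. Saa1 supplied 16.6 ± 4.42% in sorbate livers and 48.9 ± 3.32% in control livers, and Saa2 3.42 ± 2.69% in sorbate livers and 41.3 ± 11.6% in control livers. Saa3 was a minor component of both, at 0.488 ± 0.216% in sorbate livers and 0.274 ± 0.155% in control livers (SD, n = 4 each). By mean CPM, Saa1 ranked at place 612 of the tested genes in sorbate livers and at place 16 in control livers. The rank of Saa2 was 3064 in sorbate livers and 17 in control livers, that of Saa3 8860 in sorbate livers and 1619 in control livers, and that of Saa4 132 in sorbate livers and 101 in control livers.

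**Figure D2:**
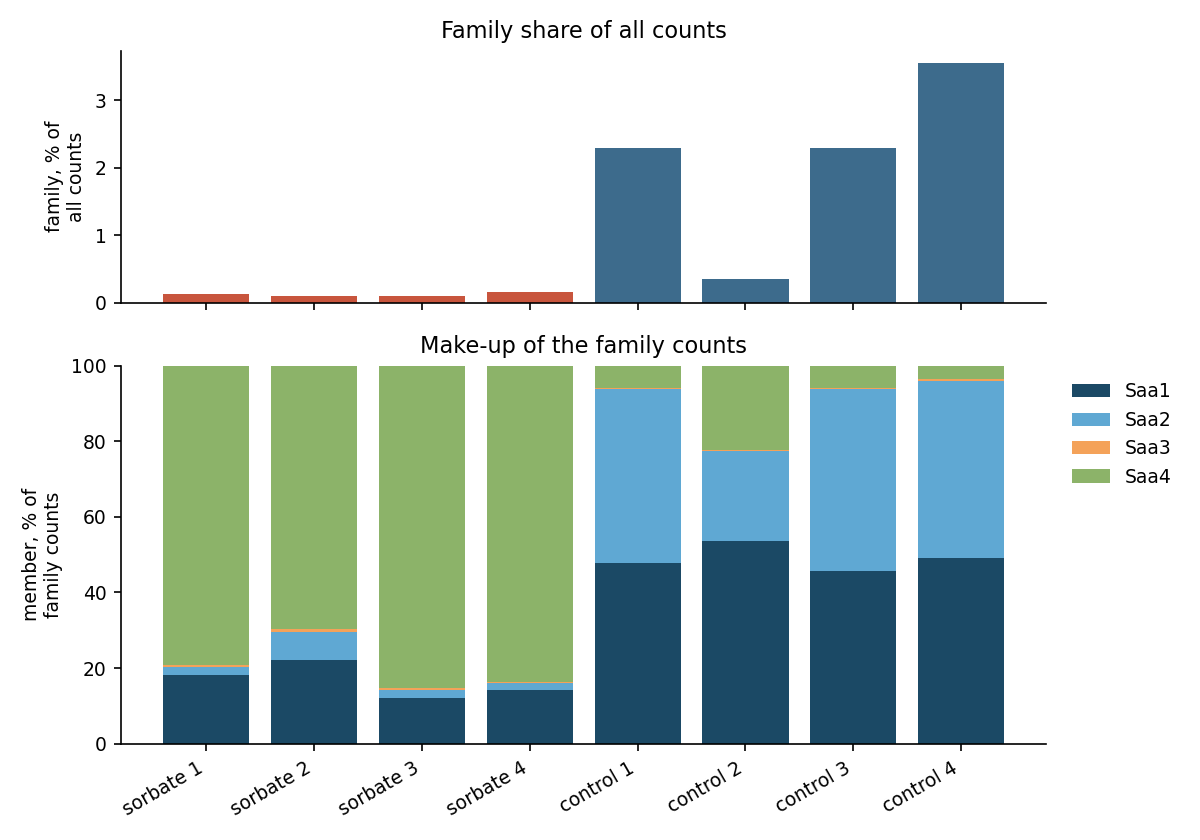
Joint share of the 4 genes in all counts of each library (upper bars, percent) and the percent that each member contributed to the family counts (lower stacked bars), with sorbate libraries on the left. The family share is at most 0.158% in sorbate livers, and Saa4 makes up most of it there, whereas Saa1 and Saa2 make up most of it in every control.

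Saa3 was lower in the sorbate livers as well, from a far lower level. It had 4.90, 7.16, 5.49 and 3.53 CPM in sorbate replicates 1 to 4, against 68.4, 7.60, 27.7 and 187.5 CPM in control replicates 1 to 4. The groups did not overlap, but control replicate 2 was only 1.06 times the highest sorbate library, and control replicate 4 was well above the other controls. Saa3 averaged 5.27 ± 1.5 CPM in sorbate livers and 72.8 ± 80.6 CPM in control livers (SD, n = 4 each), from 470 counts in sorbate livers and 5894 in control livers. The log2 fold change was -3.78 (SE 0.79, 95% interval -5.52 to -2.04), or 13.8-fold lower, with an adjusted p of 0.0137 by edgeR's quasi-likelihood test. Without control replicate 2 the value was -4.14, without control replicate 4 it was -2.70 (adjusted p = 0.0266), and the call was lost without sorbate replicate 4 (-3.64, adjusted p = 0.0520) and with 1 surrogate variable (-1.68, adjusted p = 0.150). Leaving out any 1 library gave adjusted p from 0.000149 to 0.0520.

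Markers of macrophages, monocytes and neutrophils had lower summed levels in sorbate livers than in 3 of the 4 control livers, and most adipocyte markers were close to 0 in both groups. Of 12 Kupffer cell and macrophage markers, all tested, 7 were called lower and none higher, where 6.3% of all tested genes were called lower. Their summed level was 205 to 395 CPM in sorbate livers, against 284 CPM in control replicate 2 and 539 to 692 CPM in the other controls. Timd4, the marker of this list with the lowest p, was lower by 1.06 on the log2 scale (adjusted p = 0.0210, edgeR's quasi-likelihood test). Its level in control replicate 2, 5.42 CPM, was just above the highest sorbate library, 5.16 CPM. The call of Timd4 was not followed through the alternatives. Vsig4, a complement receptor of Kupffer cells, was lower by 1.04 on the log2 scale, and Cd163, the macrophage haemoglobin scavenger receptor, by 1.30. Vsig4, Cd163 and Plac8, a monocyte marker, each lost the call without any 1 of replicates 1, 3 and 4 of either group (adjusted p up to 0.102, 0.0788 and 0.104). Of 6 monocyte markers 4 were tested and 1 was called, Plac8, which was lower by 1.39. The list summed to 5.23 to 14.6 CPM in sorbate livers, against 9.27 CPM in control replicate 2 and 22.9 to 25.7 CPM in the other controls. Neutrophil markers were scarce, at 1.22 to 3.16 CPM in sorbate livers, against 2.35 CPM in control replicate 2 and 15.6 to 29.0 CPM in the other controls. Both neutrophil genes that could be tested of the 11, S100a9 and Csf3r, were lower, and Ngp and Camp had no count in any sorbate library. The call of Csf3r was lost without any 1 library other than control replicate 2 (adjusted p up to 0.120). With 1 surrogate variable S100a9 was at -1.65 (adjusted p = 0.252), Csf3r at -0.52 (0.433), Cd163 at -0.46 (0.192), Vsig4 at -0.53 (0.266) and Plac8 at -0.67 (0.259), and none was called. For the macrophage, monocyte and neutrophil lists, control replicate 2 lay within the range of the sorbate libraries. Among 6 adipocyte markers Lipe, hormone-sensitive lipase, alone was tested and was higher by 1.25. Adipoq, the gene of adiponectin, had 3 counts in sorbate livers and 13 in control livers. Cfd had 31 counts in sorbate livers and 38 in control livers, and Retn 2 in sorbate livers and 4 in control livers. Plin1 and Lep went the other way, with 10 and 2 counts in sorbate livers and 5 and 0 in control livers. The sum over these 6, nearly all of it Lipe, was 23.4 to 28.8 CPM in sorbate livers, against 14.4 CPM in control replicate 2 and 9.62 to 10.6 CPM in the other controls. The 5 markers other than Lipe summed to 0.304 to 0.845 CPM in sorbate livers and 0.168 to 1.74 CPM in control livers, so the ranges overlapped.

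The summed level of 6 sinusoidal endothelium markers was 113 to 137 CPM in sorbate livers, against 110 CPM in control replicate 2 and 200 to 225 CPM in the other controls, with 1 of 6 called lower. The 6 stellate cell markers had no member called, and their sum ranged from 112 to 178 CPM in sorbate livers and from 110 to 156 CPM in control livers. Of 10 hepatocyte markers none was called lower and 1, Cyp2e1, was higher by 0.87. Beside these counts in short lists, 6.3% of all tested genes were called lower and 6.14% higher. In bulk liver, fewer cells of a type and less RNA per cell cannot be told apart. The part of these cell types in the levels of the Saa genes was not tested.

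Saa4, the constitutive member, did not pass the threshold. It had 974, 693, 779 and 1270 CPM in sorbate replicates 1 to 4, against 1457, 794, 1439 and 1427 CPM in control replicates 1 to 4. The groups overlapped, since control replicate 2 lay below 2 of the sorbate libraries while the other 3 controls lay above all 4. Saa4 averaged 929 ± 256 CPM in sorbate livers and 1279 ± 324 CPM in control livers (SD, n = 4 each), with a log2 fold change of -0.46 (SE 0.24, 95% interval -0.99 to 0.07, adjusted p = 0.225, edgeR's quasi-likelihood test). The interval does not reach the size of the change in Saa1 or Saa2. Without control replicate 2 the log2 fold change was -0.62 and passed the threshold (adjusted p = 0.0258).

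Lower calls were made for 3 of the 4 members, where 6.3% of all tested genes were called lower and 6.14% higher. The groups did not overlap, with sorbate lower, for the same 3 members, as for 8.32% of all tested genes, or 17.7% counting both directions. The median log2 fold change of all tested genes was -0.02. Saa3 stood at place 17 and Saa4 at place 1977 when the 13312 genes were ordered from the lowest log2 fold change.

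**Figure D3:**
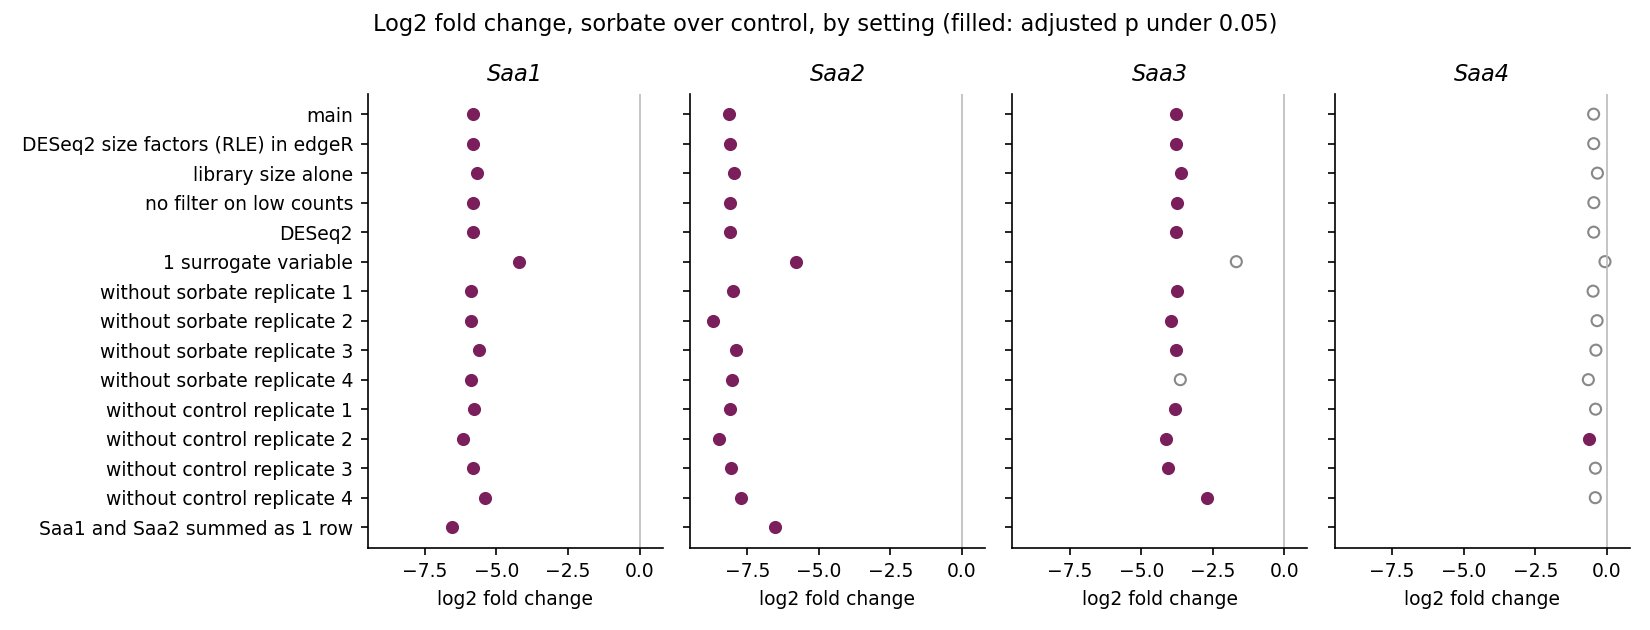
Log2 fold change of each member, sorbate over control, under each way of processing (rows) with filled points for adjusted p under 0.05. Saa1 and Saa2 are filled in every row, with the summed pair shown in both panels, Saa3 is open with 1 surrogate variable and without sorbate replicate 4, and Saa4 is filled without control replicate 2.

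Dividing by mRNA length allowed levels to be compared between members. The length was that of a single annotated transcript of each gene, 2094 bases for Saa4 and 555 to 609 for the others. Which transcript forms these livers made was not tested, and the order of Saa4 among the members depends on it. After sorbate, Saa4 led with 444 ± 122 CPM per kilobase, followed by Saa1 with 315 ± 88.7, Saa2 with 61.7 ± 40.9 and Saa3 with 9.49 ± 2.71 CPM per kilobase (SD, n = 4 each). Saa4, at 331 to 606 CPM per kilobase, and Saa1, at 182 to 366, overlapped in these livers, whereas the lower places did not overlap with their neighbours. In control livers Saa1 had 17814 ± 11506 and Saa2 17225 ± 11821 CPM per kilobase, which overlapped, followed without overlap by Saa4 with 611 ± 155 and Saa3 with 131 ± 145 CPM per kilobase.

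The tested genes nearest to the cluster did not pass the threshold. Saal1, the serum amyloid A-like gene 1318 bases from Saa3, had 4.46 ± 1.43 CPM in sorbate livers and 5.76 ± 1.19 CPM in control livers, with a log2 fold change of -0.36 (adjusted p = 0.348). Hps5, which encodes a subunit of a lysosome-related organelle complex and lies 6153 bases beyond Saa2, had 17.3 ± 1.47 CPM in sorbate livers and 15.8 ± 1.25 CPM in control livers (log2 fold change 0.14, adjusted p = 0.426). Sergef (-0.45), Gtf2h1, a subunit of the general transcription factor TFIIH (0.33), and the pseudogene Gm9392 (-0.12) did not pass the threshold either, although Gtf2h1 did when scaled by library size alone (0.46, adjusted p = 0.0419). Ldha, lactate dehydrogenase A, 87162 bases away, was the 1 tested neighbour that did, with 631 ± 95.8 CPM in sorbate livers and 1366 ± 458 CPM in control livers and a log2 fold change of -1.11 (adjusted p = 0.0198, edgeR's quasi-likelihood test). That call was lost without any 1 of replicates 1, 3 and 4 of either group (adjusted p up to 0.0646) and with 1 surrogate variable (-0.48, adjusted p = 0.0593). The pseudogene Saa-ps, between Saa4 and Saa1, had 2 counts in all 8 libraries together.

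**Figure D4:**
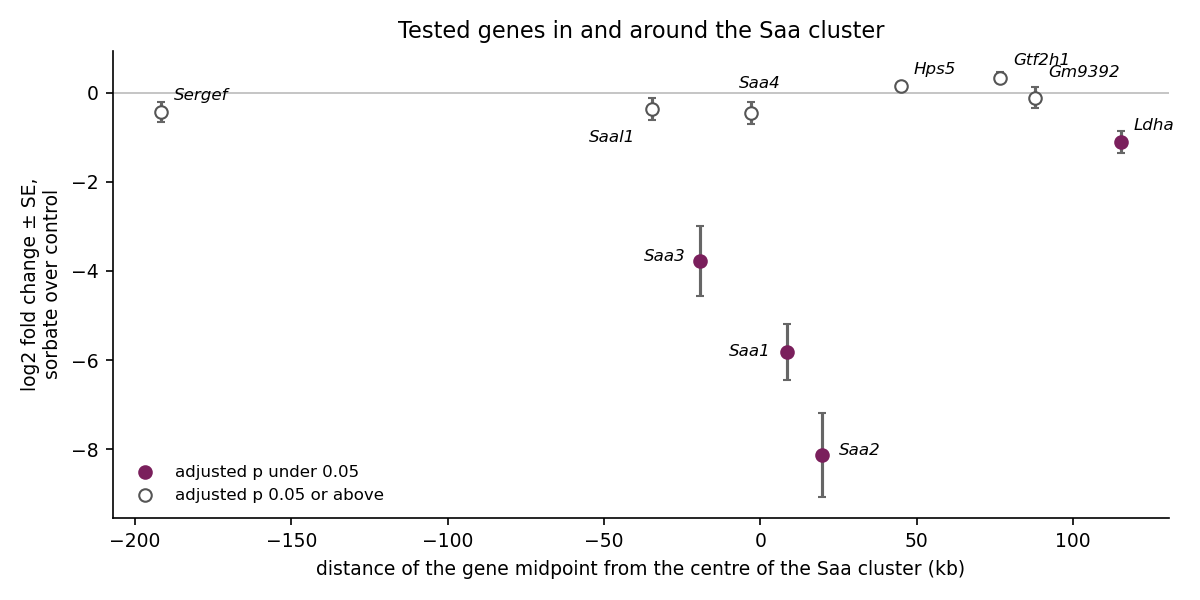
Log2 fold change, sorbate over control, with its standard error, for each tested gene in and around the cluster, against the distance of the gene's midpoint from the centre of the cluster in kilobases. Filled points passed the threshold, and Saa1, Saa2 and Saa3 lie far below their neighbours, whereas Saa4, inside the cluster, lies near them.

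The genes whose profile over the 8 libraries came closest to that of the summed Saa1 and Saa2 counts were Lcn2, Cdkn1a, Prtn3, Orm2, Apcs and Sqle. Likeness was the root mean square difference of log2 CPM values, each gene centred on its mean. It was 0.71 for Lcn2, a siderophore-binding lipocalin, 0.82 for Cdkn1a, an inhibitor of cyclin-dependent kinases, and 0.87 for Prtn3, a serine protease of myeloid granules. It was 0.88 for Orm2, an alpha-1-acid glycoprotein, 1.14 for Apcs, the serum amyloid P pentraxin, and 1.28 for Sqle, an enzyme of cholesterol synthesis. Saa3 was at 1.70 and Saa4 at 2.95, where the median of all tested genes was 3.24.

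Lcn2 had 8.30, 14.3, 3.80 and 11.6 CPM in sorbate replicates 1 to 4, against 1666, 36.4, 1156 and 2088 CPM in control replicates 1 to 4. Cdkn1a had 2.62, 1.56, 0.823 and 1.70 CPM in sorbate replicates 1 to 4, against 107.5, 6.31, 75.8 and 68.5 CPM in control replicates 1 to 4. In all 6 genes, as in the pair, control replicate 2 was the lowest control and above every sorbate library. The genes were picked for likeness over these same libraries, so this is no independent support. Sqle had 3.89 to 7.69 CPM in sorbate livers, against 25.5 CPM in control replicate 2 and 98.1 to 110.0 CPM in the other controls. When control replicate 2 was left out, 5 of these 6 genes remained among the closest 6, at 0.41 for Lcn2, 0.74 for Orm2, 0.75 for Prtn3, 0.78 for Cdkn1a and 1.14 for Apcs, while Sqle stood at place 10 with 1.36. The likeness is a description with no test.

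The pathway that induces Saa1 and Saa2 was followed from ligand to target in 7 lists with 123 genes, of which 108 were tested. Counting each gene once, 29 were called lower and 1 higher, and without control replicate 2 the counts were 50 lower and 9 higher. Over all tested genes 6.3% were called lower and 6.14% higher. Of 10 cytokines that induce serum amyloid A, 3 passed the filter and none was called. Il1b, the gene of interleukin 1 beta, had 212 counts in sorbate livers and 197 in control livers, with a log2 fold change of -0.01. Il1a (-0.06) and Clcf1 (-0.36), the other tested ligands, did not pass the threshold either. Il6 had 2 counts in the 4 sorbate libraries and 3 in the controls, Tnf 10 in sorbate and 7 in control libraries, and Il22 none in either group. At this depth no difference in those ligands could be detected in liver RNA.

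Among cytokine receptors of hepatocytes, a list that includes the receptor antagonist Il1rn, 4 of 12 tested were called lower and none higher. Their median log2 fold change was -0.35, and 6.3% of all tested genes were called lower. Il1rn, which was not called, is in the list of acute-phase proteins as well. Osmr, the oncostatin M receptor, had 2.17, 3.51, 2.88 and 2.62 CPM in sorbate replicates 1 to 4, against 28.8, 2.40, 18.1 and 18.6 CPM in control replicates 1 to 4. Control replicate 2 lay within the range of the sorbate libraries, and the other controls were far above it. Its log2 fold change was -2.61 (SE 0.55, adjusted p = 0.0144, edgeR's quasi-likelihood test), and the adjusted p was 0.0504 without sorbate replicate 4. With 1 surrogate variable Osmr was at -0.75 (adjusted p = 0.0866), Il1r1 at -0.85 (0.0600) and Tnfrsf1a at -0.29 (0.333), and none of these was called. They were at -2.96, -1.76 and -1.39, all called, without control replicate 2. Il1r1, the signalling receptor of interleukin 1, averaged 108 ± 37.2 CPM in sorbate livers and 315 ± 126 CPM in control livers (SD, n = 4 each) and had a log2 difference of -1.54 (SE 0.32, adjusted p = 0.0131). Tnfrsf1a, the type 1 receptor of tumour necrosis factor, was lower by 1.14, and Il11ra1, the receptor of interleukin 11, by 0.55. The call of Tnfrsf1a was lost without any 1 library other than control replicate 2 (adjusted p up to 0.0898). That of Il11ra1 was lost without sorbate replicate 2 or 4 (up to 0.0666) and when scaled by library size alone (-0.43, adjusted p = 0.0660). Il1r2, the decoy receptor of interleukin 1, failed the filter with 4 counts in sorbate livers and 69 in control livers.

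Signal transducers as a list lay near all genes, with 2 of 24 tested called lower, none higher and a median of -0.07. Of all tested genes, 6.3% were called lower and 6.14% higher. Stat3, the factor that carries interleukin 6 signals, averaged 115.4 ± 10.0 CPM in sorbate livers and 201 ± 62.3 CPM in control livers (SD, n = 4 each) and had a log2 difference of -0.80 (SE 0.20, adjusted p = 0.0282). Tab2, an adaptor of the kinase TAK1, was lower by 0.70 without overlap of the groups (adjusted p = 0.0107, edgeR's quasi-likelihood test). Of 19 transcription factors tested, Stat3, which both lists hold, was lower and Cebpa was higher, and the median was -0.04. Cebpa, the C/EBP factor of resting hepatocytes, averaged 311 ± 41.3 CPM in sorbate livers and 197 ± 54.6 CPM in control livers and had a log2 difference of 0.66 (SE 0.18, adjusted p = 0.0430), with control replicate 2 at 277 CPM inside the range of the sorbate libraries. The calls of Stat3 and Cebpa were both lost without any 1 library other than control replicate 2 (adjusted p up to 0.0818 and 0.131), and also with 1 surrogate variable (-0.36 and 0.37). The values without control replicate 2 were -0.96 for Stat3 and 0.88 for Cebpa. Levels of RNA do not measure the activity of these factors.

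Of 29 other acute-phase proteins tested, 21 were called lower and none higher, where 6.3% of all tested genes were called lower. Their median log2 fold change was -1.79, beside -0.02 for all tested genes. This list and the Saa genes were known from earlier results to move in these libraries, so the count is no independent support. Orm2 had 11.9, 14.5, 14.4 and 15.3 CPM in sorbate replicates 1 to 4, against 600.5, 38.5, 525 and 1084 CPM in control replicates 1 to 4, and its log2 fold change was -5.33 (SE 0.77, adjusted p = 0.00287). Lcn2 had the lowest value of the list, at -7.03 (SE 1.03, adjusted p = 0.00314). With 1 surrogate variable Orm2 was at -2.81 and Lcn2 at -3.67, both still called, and Cp at -0.53 was not. Fgb and Fgg, the beta and gamma chains of fibrinogen, were lower by 1.74 and 1.82, and no sorbate library reached the lowest control for either gene. Cp, ceruloplasmin, had the smallest called change at -0.80, and its call was lost without sorbate replicate 3 or 4 or control replicate 3 (adjusted p up to 0.0524). Hamp, which encodes the iron hormone hepcidin and is itself an interleukin 6 target, did not pass the threshold (0.14, adjusted p = 0.817). A2m, alpha-2-macroglobulin, failed the filter with 19 counts in sorbate livers and 3575 in control livers, of which control replicate 2 reached 0.447 CPM and the other controls 14.0 to 121 CPM.

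**Figure D5:**
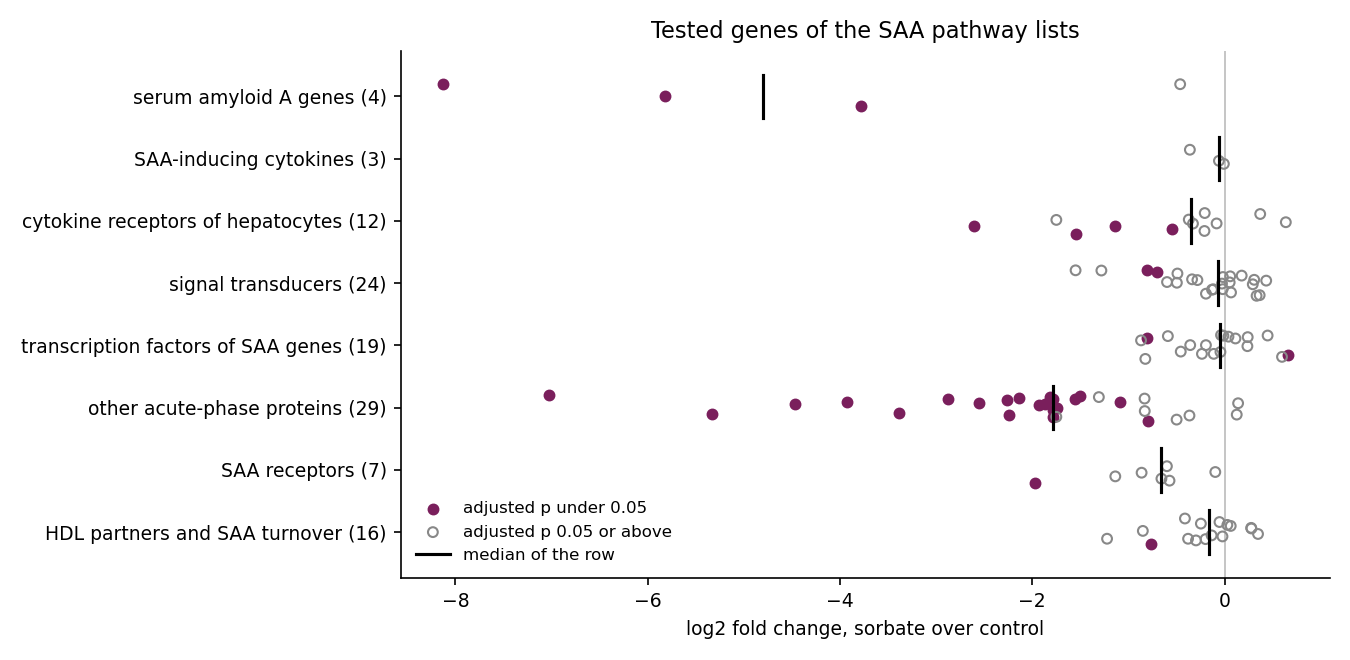
Log2 fold change, sorbate over control, of each tested gene in the serum amyloid A family and in the 7 pathway lists, with the number tested in brackets, filled points for adjusted p under 0.05 and a bar at each row's median. The other acute-phase proteins have a median of -1.79, the receptors of serum amyloid A -0.66 and the cytokine receptors -0.35. The medians of the cytokines, transducers and transcription factors are -0.06, -0.07 and -0.04. Transducers and transcription factors have single genes of both signs, whereas the 3 tested cytokines are all negative. High-density lipoprotein partners and turnover have a median of -0.17.

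Downstream of the protein, all 7 tested receptors had negative log2 fold changes, with a median of -0.66. None was called higher and 1 was called lower, where 6.3% of all tested genes were. That gene, Tlr2, a Toll-like receptor that serum amyloid A can engage, averaged 1.76 ± 0.458 CPM in sorbate livers and 6.96 ± 4.82 CPM in control livers and had a log2 difference of -1.97 (SE 0.47, adjusted p = 0.0243). Control replicate 2, at 1.96 CPM, lay within the sorbate range, and the call was lost without sorbate replicate 1, 3 or 4 or control replicate 1 or 3 (adjusted p up to 0.0759). It was at -2.27 without control replicate 2 and at -0.68, not called, with 1 surrogate variable (adjusted p = 0.261). Among 16 genes of high-density lipoprotein partners and turnover, 1 was called lower, none higher, and the median was -0.17. That count is near the share of all tested genes called lower, 6.3%. Ctsl, cathepsin L, a lysosomal protease that can degrade serum amyloid A, had 508 ± 47.9 CPM in sorbate livers and 864 ± 145 CPM in control livers (SD, n = 4 each), a log2 fold change of -0.77 (adjusted p = 0.0108). Apoa1, the main apolipoprotein of the particle that serum amyloid A joins, did not pass the threshold (-0.13).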

How the data were processed

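Poly(A) RNA of liver was sequenced as single reads from TruSeq libraries on a HiSeq instrument, per the labels. The deposited table holds counts, whole numbers of reads per gene that the authors left unnormalized as far as the values show. FastQC, HISAT2 2.1.0, Subread, edgeR and the build GRCm38 are named, per the submitters' processing notes. Annotation release, strand and the treatment of reads with several matches were not given in the sources used here. The table has 4 other columns of per-sample values that no label matched, and they stayed out.

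Groups came from the treatment in the labels. Replicate numbers follow accession order and pair nothing. Within groups, all pairs of libraries differed beyond counting noise (chi-square per gene 24.8 to 238), so none was taken for a library deposited again, which does not show that they came from separate animals. The filter filterByExpr (count minimum 10) kept at least 99.88% of counts in each library. Sorbate was compared with control by the two-sided quasi-likelihood test of edgeR 4.0.16 (R 4.3.3) with TMM factors, and p-values were adjusted over all 13312 genes (Benjamini-Hochberg, threshold 0.05). Standard errors came from the coefficient and its F statistic. The alternatives were DESeq2 1.42.0, its size factors in edgeR, library size alone without TMM factors, and no filter. Further ones were 1 surrogate variable (sva 3.50.0), a summed pair and leaving out each library. Likeness without control replicate 2 and the adipocyte sum without Lipe were added after seeing the data. The scripts were tested on simulated counts. Coordinates and transcripts are from GENCODE vM21, upstream bases from RefSeq, where all 4 members matched by symbol.

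The members, the 7 pathway lists and the 7 marker lists were chosen with earlier results of these data known. Named genes are the members, up to 4 called genes of each list with the lowest p (at most 2 as values where none was called, and cytokines under the filter as counts), 6 genes by likeness and 5 neighbours on each side. Il1b, Il1r2, Il1rn, A2m, Hamp, Apoa1 and Cp, and the marker genes, were named after their values were seen.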

Additional observations from a re-analysis of the deposited data

Results flagged for a closer look

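Of 50 groups of 4 libraries checked, 6 held a library far from the other 3 by Dixon's criterion, which sets the gap to the nearest library against the whole range. Chance alone gives this in about 1 in 20 groups. Saa1 in sorbate replicate 3 was 111 CPM, against 214 to 223 CPM in the other sorbate livers. Saa4 in control replicate 2 was 794 CPM, against 1427 to 1457 CPM in the other controls. The Saa2 share of the Saa1 and Saa2 counts in control replicate 2 was 30.9%, against 48.9 to 51.4% in the other controls. Control replicate 2 was likewise apart for Il11ra1, at 38.7 CPM against 29.3 to 30.025 CPM, and for Sqle, at 25.5 CPM against 98.1 to 110.0 CPM. Prtn3 in sorbate replicate 4 was 1.46 CPM, against 0.187 to 0.356 CPM in the other sorbate livers.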

How the results depend on the processing

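Saa1 and Saa2 kept their direction and remained past the threshold in all 14 alternatives each, Saa3 in 11 of 13, and Saa4 stayed short of the threshold in 12 of 13. With 1 surrogate variable the log2 fold changes were -4.20 for Saa1, -5.80 for Saa2, -1.68 for Saa3 (adjusted p = 0.150) and -0.07 for Saa4. That variable is 0.47 in control replicate 2, -0.53 to -0.37 in the other controls and 0.08 to 0.30 in sorbate libraries, so it overlaps with the group. Leaving out each library in turn gave -6.16 to -5.40 for Saa1, -8.69 to -7.71 for Saa2, -4.14 to -2.70 for Saa3 and -0.65 to -0.34 for Saa4. Saa3 lost its call without sorbate replicate 4 (-3.64, adjusted p = 0.0520), and Saa4 gained one without control replicate 2 (-0.62, adjusted p = 0.0258). Over these fits the adjusted p by edgeR's quasi-likelihood test was 0.0258 to 0.413 for Saa4. The difference in the Saa2 share stayed between -34.1 and -27.3 points, and that in the family share between -2.59 and -1.53 points, the smallest without control replicate 4. Genes called higher numbered 818, with 1300 by library size alone, 313 with the surrogate variable and 332 to 2053 on leaving out a library. Genes called lower numbered 838, with 550, 293 and 357 to 1915 under the same changes, the highest counts being those without control replicate 2. Under library size alone 70.3% of calls were higher, against 49.4% with TMM factors, and the median log2 fold change moved to 0.11. Over the pathway lists 1 gene was called higher (0 to 9 on leaving out a library) and 29 lower (20 to 50). DESeq2 called 1212 genes higher and 1244 lower. Of 26 other named genes past the threshold, Timd4 not among them, 14 remained past it on leaving out any library. With the surrogate variable 13 lost their call. Signs turned for 4 genes short of the threshold. Il1b was 0.13 by library size alone, 0.00047 with no filter, 0.23 with the surrogate variable and -0.43 to 0.31 on leaving out a library. Il1a was 0.071 by library size alone, 0.15 with the surrogate variable and -0.18 to 0.092 on leaving out a library. Gm9392 was 0.00030 by library size alone and -0.27 to 0.070 on leaving out a library, and Hamp -0.14 to 0.41. The causes of these shifts were not tested. No paired analysis was possible because nothing in the labels ties the library numbers of one group to those of the other through a batch, litter or day. Depth limits the cytokines, most of which had a handful of counts.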
